A study of Mus musculus with 66 samples.

Results

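The 9 interferon-stimulated genes Isg15, Ifit1, Ifit3, Irf7, Stat2, Oasl2, Bst2, Rsad2 and Usp18 were followed by mRNA-Seq in C2C12 cells, a mouse myoblast line that forms muscle fibres when serum is withdrawn. They were taken by name from the expression table, which lists 22489 genes, and all 9 had a row in it. The table holds 20 libraries: a growth and a differentiated library of cells without a transgene (WT) and of 9 lines that each carry an N-terminal GFP-tagged histone H3. The H3.1/H3.2-type proteins were H3.1, H3.2 and H3t, and the 6 H3.3-type proteins were H3.3 itself and the variants H3mm7, H3mm11, H3mm12, H3mm13 and H3mm16. The columns named H3mmT were taken as the H3t line, which had no column under its own name. Growth cultures were kept in 20% fetal bovine serum and harvested before confluence, and differentiated cultures were harvested 48 h after transfer to 2% horse serum. Each tagged H3 is represented by a single line. All 9 lines also received the transactivator of the Tet-On system, were selected with doxycycline and G418 and were sorted for GFP, steps that WT is not described to share. Whether doxycycline was present at harvest is not stated in the sources used here. The lines therefore stand in for replicates of a state, each with another transgene. Where the line is not a term of the fit, a p-value for states or types measures the spread between these lines.

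Type I interferons bind the receptor pair Ifnar1 and Ifnar2, whose kinases Jak1 and Tyk2 phosphorylate Stat2. Stat2 and Irf9 are part of the factor ISGF3, which binds the interferon-stimulated response element (ISRE) of many genes. Their products mark proteins with ISG15, bind foreign RNA, or act on viral membranes, and Usp18 and Socs1 restrain the pathway. Cells without a detectable interferon response keep most of these genes at low levels.

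The promoters of the members were searched for the ISRE core, that is GAAA, any 2 bases and GAAA again, on both strands (overlapping matches counted). RefSeq promoters (GRCm38.p6, 250 bases before to 50 after the gene start) matched 8 of the 9 members by symbol, all but Usp18. The core occurred in 6 of these 8, against 3.99% of the 27025 genes with a promoter in that table. The match nearest to the start of each of the 6 genes is given in the 5′ to 3′ direction of the gene, with the core in capitals and 10 flanking bases on each side, since most of the matched promoters hold it.
Isg15: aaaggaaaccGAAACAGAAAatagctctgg
Stat2: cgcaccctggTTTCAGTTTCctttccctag
Ifit1: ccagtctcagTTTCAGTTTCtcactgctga
Ifit3: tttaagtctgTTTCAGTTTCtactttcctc
Rsad2: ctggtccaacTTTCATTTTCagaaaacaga
Bst2: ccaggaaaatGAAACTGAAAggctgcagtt
In mm9, the build of the expression table, these letters lie outside the annotated genes at chr4:155574974-155575003 (minus strand, Isg15), chr10:127707322-127707351 (plus, Stat2), chr19:34715284-34715313 (plus, Ifit1), chr19:34657887-34657916 (plus, Ifit3), chr12:27141418-27141447 (minus, Rsad2) and chr8:74061476-74061505 (minus, Bst2). Isg15 held 3 overlapping matches and Bst2 had 2 that overlap. Ifit1 and Ifit3 had 2 separate ones each, whereas Stat2 and Rsad2 had 1. No match was found in the windows of Irf7 and Oasl2, which says only that these letters are not in those windows. The GAS motif TTCNNNGAA (N is any base), which Stat dimers bind, was in 1 of the 8 promoters and in 9.55% of all genes.

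Values are FPKM, fragments scaled to exon length and to the mapped fragments of the library, so levels of different genes compare per length. In growth, Stat2 (5.82 ± 0.83 FPKM, SD, n = 9 GFP-H3 lines) and Bst2 (5.80 ± 2.71) were the highest members and did not differ beyond their spread. Isg15 followed with 1.00 ± 0.65 FPKM. The means of the other 6 genes were lower, from 0.183 FPKM for Irf7 down to 0.0260 FPKM for Rsad2, and their ranges overlapped between neighbours. When differentiated, Bst2 averaged 22.5 ± 24.9 FPKM, Stat2 11.9 ± 2.28 and Isg15 5.63 ± 6.70. The SD of Bst2 and of Isg15 exceeded the mean, whereas that of Stat2 was well under it. A mean of at least 1 FPKM over the 18 GFP-H3 libraries, the limit used for testing, was reached by 4 members, Isg15, Irf7, Stat2 and Bst2. Irf7 reached it through its differentiated libraries alone. Low levels rest on few fragments: the number of reads is unknown, and the depth of the 20 libraries relative to H3.1 growth, worked out from the spacing of low values, ran from 0.464 in H3mm11 differentiated to 1.12 in H3.3 differentiated. The libraries listed between 13858 and 16865 genes above 0 FPKM, with WT at the lower end and H3.3 at the upper end in both states.

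**Figure D1:**
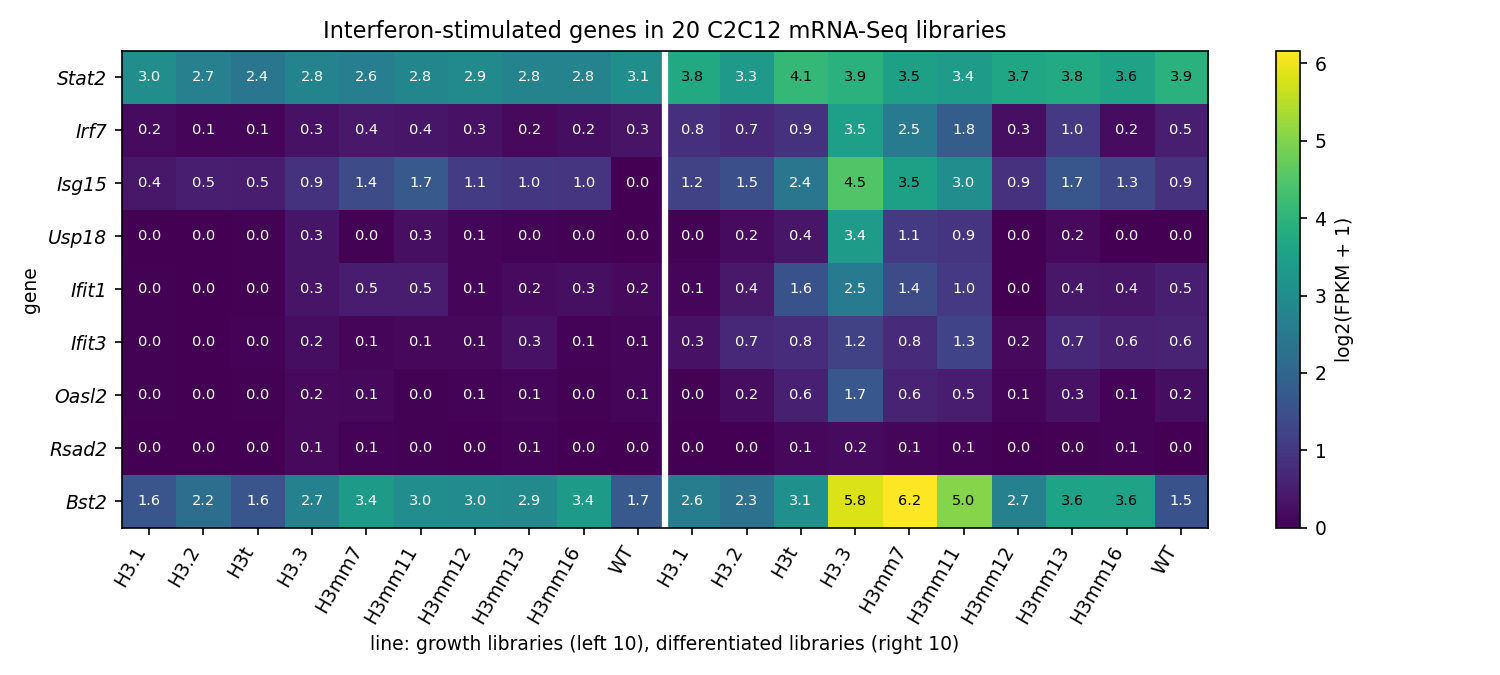
Level of each member (rows) in the 20 libraries (columns, growth left of the white line, differentiated right of it), as log2(FPKM + 1), with the value written in each cell. Stat2 is highest in differentiated H3t, and the other members are highest in the differentiated libraries of H3.3, H3mm7 or H3mm11.

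Stat2 is the ISGF3 subunit specific to the type I and type III interferon pathways (chromosome 10, 127707629 to 127729905, plus strand of mm9). In growth it ranged from 4.32 FPKM (H3t) over a median of 5.78 to 7.24 (H3.1), and when differentiated from 9.14 (H3.2) over 11.6 to 16.2 (H3t). The groups did not overlap, and WT had 7.33 and 14.4 FPKM in growth and differentiation. Its partner Irf9 went from 1.34, 2.34 and 2.42 FPKM to 2.74, 5.10 and 19.1 FPKM (lowest, median and highest of growth and of differentiated libraries), with H3.3 as the highest, and its states did not overlap. The Irf9 locus overlaps that of Rnf31 on the same strand in mm9, so reads in the shared part cannot be assigned with certainty.

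Irf7 encodes the factor that amplifies interferon transcription and is itself induced by ISGF3 (chromosome 7, 148448605 to 148452380, minus strand). Its growth values were 0.0519 FPKM at the lowest (H3t), 0.181 at the median and 0.334 at the highest (H3mm7). When differentiated, H3.3 had 10.2, H3mm7 4.86 and H3mm11 2.51 FPKM. H3mm13 had 1.02, H3t 0.871, H3.1 0.787 and H3.2 0.606 FPKM, and H3mm12 and H3mm16 had 0.199 and 0.159. The 3 highest libraries stood apart, while H3mm12 and H3mm16 did not exceed their own growth values of 0.222 and 0.181 FPKM. WT had 0.256 and 0.428 FPKM. Irf7 overlaps Phrf1 on the opposite strand, with 0.608% of its 31-base words shared, and the libraries are not described as stranded.

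Isg15 encodes the ubiquitin-like protein that is attached to other proteins (chromosome 4, 155573533 to 155574927, minus strand). Its growth values were 0.323 (H3.1), 0.427 (H3.2) and 0.375 FPKM (H3t), against 2.31 (H3mm11), 1.71 (H3mm7), 1.09 (H3mm12), 0.975 (H3mm13), 0.939 (H3mm16) and 0.871 (H3.3). When differentiated, H3.3 had 21.3, H3mm7 10.3, H3mm11 7.06 and H3t 4.33 FPKM, and the other 5 lines had between 0.831 (H3mm12) and 2.15 (H3mm13). H3.3 was 2.06 times the next highest library and 10.7 times the median of the other 8. WT was listed at 0 in growth and at 0.854 FPKM when differentiated.

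Usp18 encodes the protease that removes ISG15 and also dampens receptor signalling (chromosome 6, 121195924 to 121220934, plus strand). It was listed at 0 in growth in H3.1, H3.2 and WT, and the highest growth values were 0.272 FPKM in H3.3 and 0.197 FPKM in H3mm11. When differentiated, H3.3 had 9.55, H3mm7 1.08 and H3mm11 0.901 FPKM, and H3t followed with 0.293. It was listed at 0 in H3mm12, H3mm16 and WT. The H3.3 value was 8.84 times that of H3mm7, the largest ratio of the H3.3 value to the next among the 9 members when differentiated.

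Ifit1, Ifit3 and Oasl2 encode proteins of the antiviral response to RNA: Ifit1 and Ifit3 belong to the family that binds RNA with a foreign 5′ end, and Oasl2 is a relative of the oligoadenylate synthetases. Ifit1 (chromosome 19, 34715361 to 34724499, plus strand) had 0.0165 FPKM at the lowest (H3.2), 0.137 at the median and 0.419 at the highest (H3mm11) in growth. When differentiated it had 4.75 FPKM in H3.3, 1.95 in H3t, 1.69 in H3mm7 and 1.04 in H3mm11, and the other 5 lines lay between 0 (H3mm12) and 0.346 (H3.2). For this gene, the H3t line stood with the 3 H3.3-type lines that were high. Ifit3 (chromosome 19, 34658021 to 34663221, plus strand) ranged from 0.0104 over 0.0817 to 0.231 FPKM in growth and from 0.123 over 0.648 to 1.38 FPKM when differentiated, with H3mm11 (1.38) and H3.3 (1.31) as the highest. In H3mm12 the values of both states were close, with 0.105 and 0.123 FPKM. Of the 31-base words in Ifit3 transcripts, 63.2% occur also in I830012O16Rik, so the split of reads between these genes is uncertain. For Ifit1 the shared part was 10.3%. Oasl2 (chromosome 5, 115346943 to 115362243, plus strand) did not exceed 0.121 FPKM in growth. Its differentiated values were 2.18 FPKM in H3.3, 0.510 in H3mm7, 0.467 in H3t and 0.377 in H3mm11, and 0.0293 at the lowest (H3.1). Thus H3.3 alone was above 1 FPKM, at 4.27 times the next library.

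Rsad2 and Bst2 act at membranes, Rsad2 (viperin) as a radical SAM enzyme and Bst2 (tetherin) by holding budding virions on the cell surface. Rsad2 (chromosome 12, 27127618 to 27141317, minus strand) was the lowest member, with no library above 0.142 FPKM (H3.3 differentiated) and with 0.109 FPKM in H3.3 growth. It was listed at 0 in growth in H3.1, H3.2 and H3t. Bst2 (chromosome 8, 74058163 to 74061336, minus strand) was the member with the largest spread between lines. In growth it had 2.09 (H3.1), 3.68 (H3.2) and 2.11 FPKM (H3t), against 9.24 (H3mm16), 9.23 (H3mm7), 7.07 (H3mm11), 6.83 (H3mm12), 6.43 (H3mm13) and 5.50 (H3.3). When differentiated it reached 70.7 FPKM in H3mm7, 55.8 in H3.3 and 31.9 in H3mm11, and the other 6 lines lay between 4.04 (H3.2) and 10.96 (H3mm13). In WT it stayed at 2.27 and 1.91 FPKM, below each of the 9 lines when differentiated. The share of all genes with WT below all 9 lines was not worked out.

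**Figure D2:**
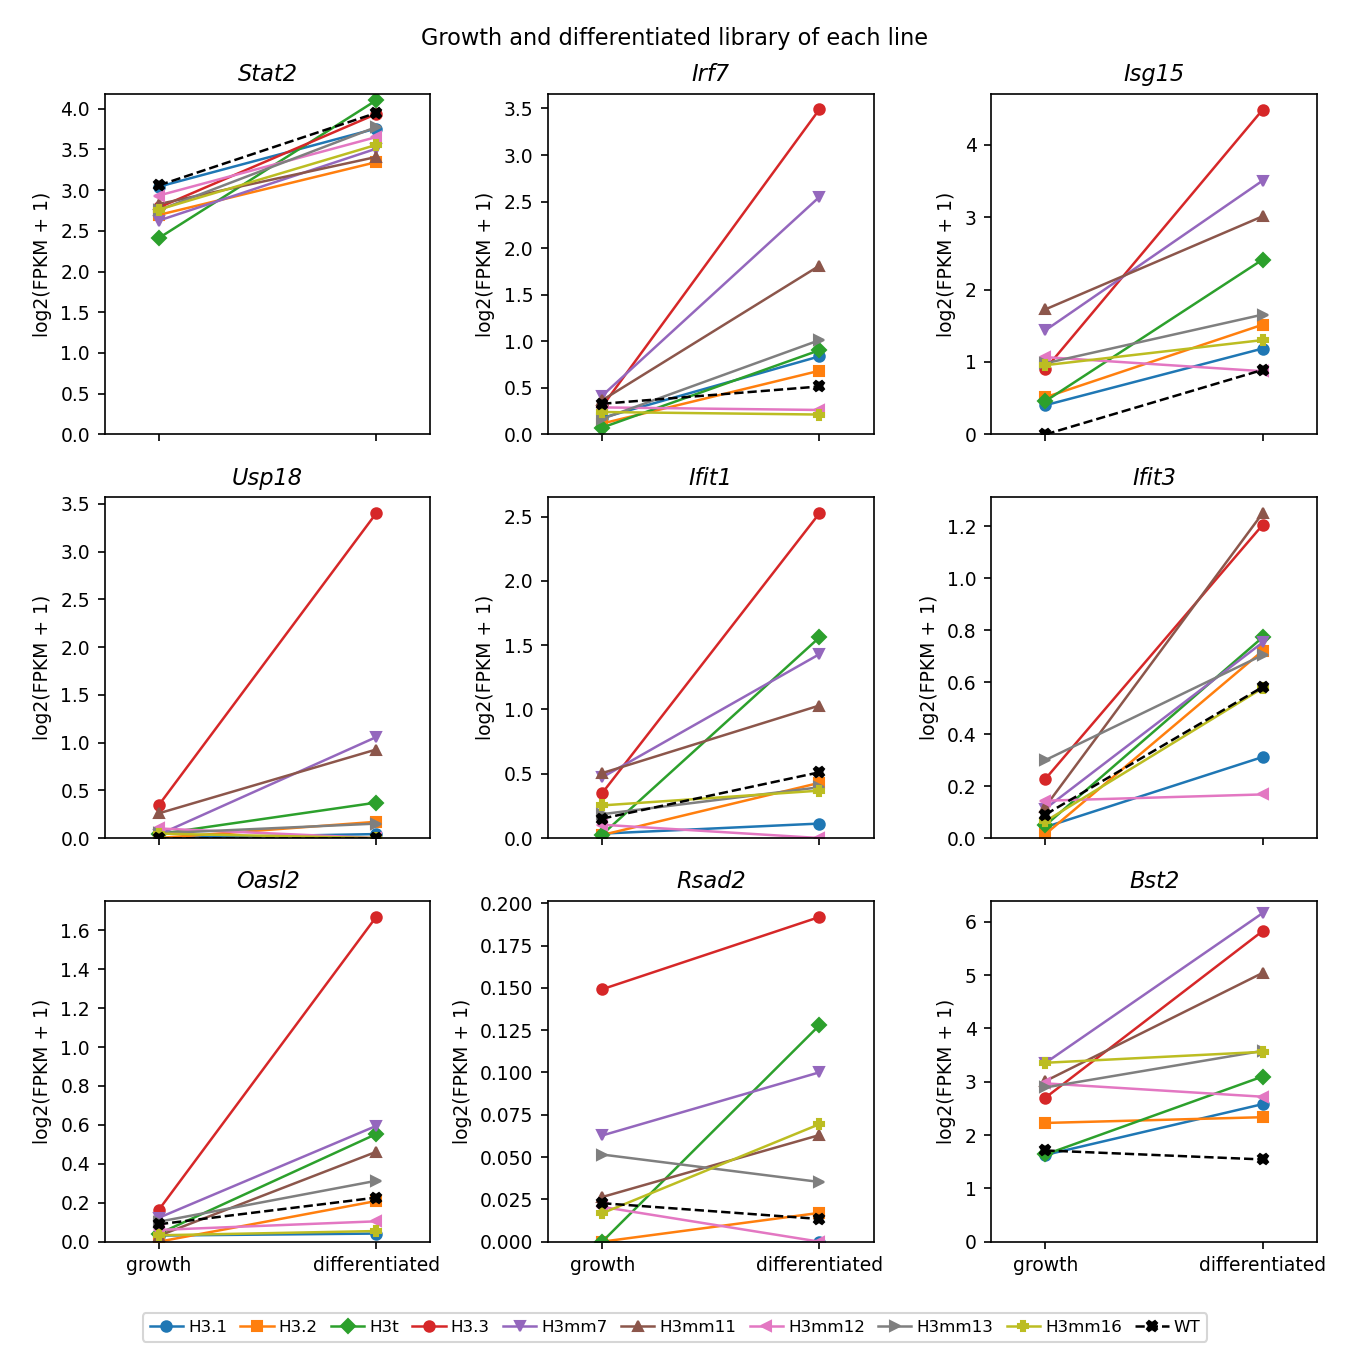
Growth and differentiated level of each member in each line, as log2(FPKM + 1), with its own vertical scale per gene, coloured solid lines for the 9 GFP-H3 lines and a dashed line for WT. Stat2 rises in all lines, and the steepest line of Irf7, Isg15, Usp18, Oasl2 and Bst2 is that of H3.3.

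The first comparison asked how the members change on differentiation. Isg15, Irf7 and Bst2 rose, by 1.28 (SE 0.40, adjusted p = 0.00889), 1.07 (SE 0.34, adjusted p = 0.0104) and 1.24 (SE 0.48, adjusted p = 0.0317) on the log2(FPKM + 1) scale (limma, 9 differentiated against 9 growth libraries, Benjamini-Hochberg adjustment over 10931 genes). To be called, a gene had to have both an adjusted p under 0.05 and a change of 1 or more. Of all tested genes 17.4% met this, 8.80% in the upward direction. Stat2 differed by 0.91 (SE 0.10, adjusted p = 3.24e-07), past the p but under the size of 1. Isg15 was higher after differentiation in 8 of 9 lines, Irf7 in 7, Bst2 in 8 and Stat2 in 9. H3mm12 was the exception for Isg15 and Bst2, and H3mm12 and H3mm16 were those for Irf7. Irf7 had passed the filter through its differentiated libraries alone, the group in which it was then tested as higher. Without the filter on low values, over 19077 genes, Isg15 (adjusted p = 0.0174) and Irf7 (adjusted p = 0.0192) were still called, and Bst2 was not (adjusted p = 0.0554); 5.22% of genes were called upward. There Ifit3 differed by 0.60 (SE 0.12, adjusted p = 4.36e-04), under the size of 1. Ifit1 (0.65, adjusted p = 0.0605), Oasl2 (0.38, adjusted p = 0.0669), Usp18 (0.58, adjusted p = 0.201) and Rsad2 (0.03, adjusted p = 0.371) did not pass. Like the fits below with a line left out, these did not use the pairing of libraries by line. With the line as a replicate block in limma and the filter kept, the adjusted p was 0.00492 for Isg15, 0.00917 for Irf7 and 0.00858 for Bst2.

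These calls rested on few lines. Without H3.3 in the limma fit, no member was called. Isg15 differed by 0.99 (adjusted p = 0.0179), past the p but just under the size of 1. Bst2 differed by 1.00 (adjusted p = 0.0798), and Irf7 fell below the filter. Bst2 was also not called without H3mm7 (adjusted p = 0.05004), H3mm11 (adjusted p = 0.0671) or H3t (adjusted p = 0.0522). Irf7 was not called without H3mm7 (0.94, adjusted p = 0.0255), where it missed only the size. Of the 9 members, Stat2 alone had every differentiated library above every growth library, which held for 7.49% of the 19077 genes above 0 FPKM.

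**Figure D3:**
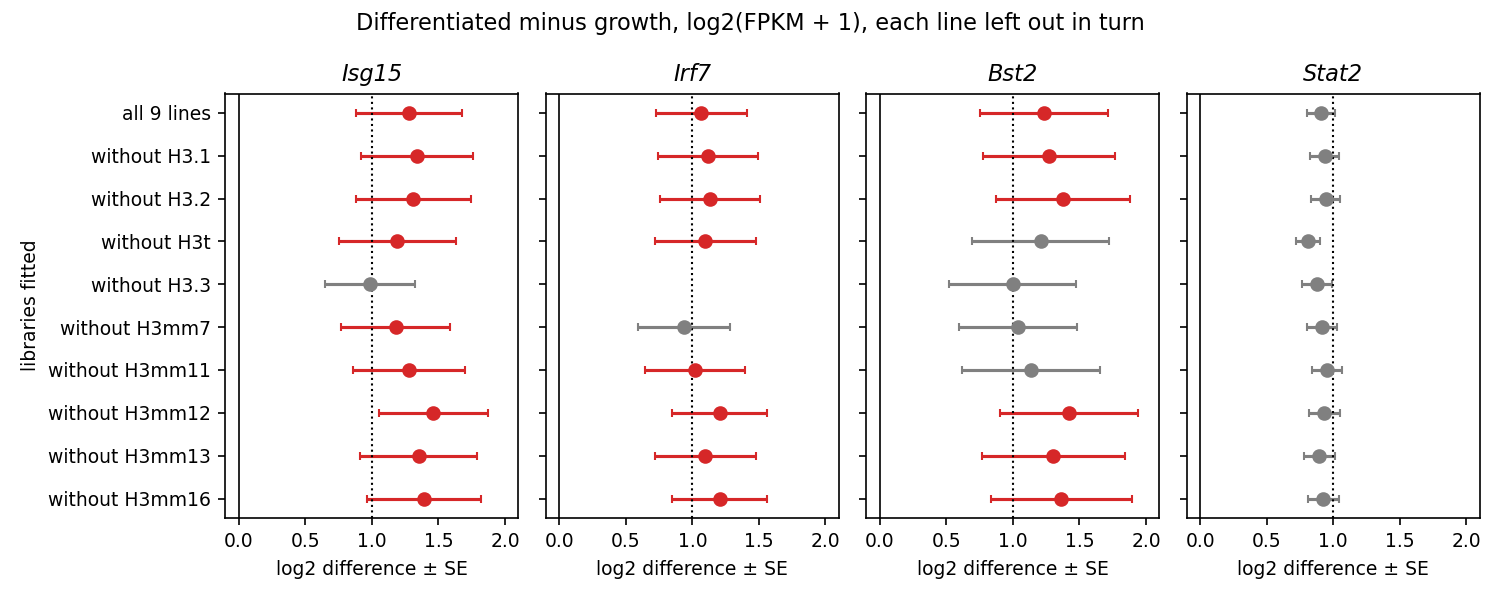
Log2 difference between differentiated and growth libraries with its SE for the 4 members above the filter, with all 9 lines and with each line left out in turn. Red points passed both the adjusted p and the difference of 1 (dotted line), grey points did not, and Irf7 has no point without H3.3 because it fell below the filter.

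Among the differentiated libraries, H3.3 was the highest of the 9 lines for 6 members, which was the case for 14.0% of the genes above 0 FPKM. H3.3, H3mm7 and H3mm11 were the 3 highest for Isg15, Irf7, Bst2 and Usp18, that is for 4 members, against 7.69% of the genes. H3t was among the 3 highest for the other members, Stat2, Ifit1, Ifit3, Oasl2 and Rsad2. H3.3, H3mm7 and H3mm11 were singled out after their values were seen, so the counts describe the order and are no test. The paper also sets these 3 lines apart when differentiated, as its group D3, by principal components of the same expression values. The summed level of 9 immune cell markers was 4.60 FPKM in H3mm7, 3.205 in H3.3 and 3.14 in H3mm11 when differentiated. In the other 6 differentiated lines it lay between 0.527 (H3t) and 2.06 FPKM (H3mm13). Taken singly, 1 of the 9 markers had H3.3, H3mm7 and H3mm11 as its 3 highest lines, against 7.69% of the genes. Most of that sum was Cd68 and Lyz2, whereas the macrophage gene Emr1 was at 0 in all 20 libraries, Ptprc (CD45) did not exceed 0.0662 FPKM and Cd3e 0.0204. The summed level of 4 endothelial markers was 2.06 FPKM in H3mm11, 1.42 in H3.3 and 0.357 in H3mm7, and between 0.235 (H3mm12) and 1.33 (H3t) in the other 6 lines. The muscle list, 9 genes, summed to 4776 FPKM in H3mm11, 6391 in H3.3 and 6248 in H3mm7, to 5263 in H3.1 and 5649 in H3t, and to between 11305 (H3.2) and 23028 (H3mm12) in the other 4 lines. The part of these in the members' order was not tested. In such bulk libraries, fewer cells that express a gene and less RNA per cell cannot be told apart.

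Differences between lines that hold in both states were then tested with the state as a term (limma F-test over 9 lines). The error here is what line and state together leave over. A line that is high in a single state widens that error, so this fit cannot find such a difference well. No member was called, against 629 of 10931 genes (5.75%). The range of the fitted line means was 2.66 for Bst2 (adjusted p = 0.130), 1.90 for Isg15 (adjusted p = 0.236), 1.67 for Irf7 (adjusted p = 0.348) and 0.38 for Stat2 (adjusted p = 0.743). When each line was set against the other 8, again no member was called, whereas 0.787% of genes were in H3.1, 0.156% in H3.2, 0.585% in H3t, 0.521% in H3.3, 1.13% in H3mm7, 0.0823% in H3mm11, 0.0457% in H3mm12 and 0.0183% each in H3mm13 and H3mm16. The nearest was Bst2 in H3mm7, with a difference of 1.69 (SE 0.56, adjusted p = 0.0754), which was called at 1.86 (adjusted p = 0.0342) once H3.3 was left out. For H3.3 the differences were 1.26 for Irf7 (SE 0.49, adjusted p = 0.163), 1.26 for Isg15 (SE 0.52, adjusted p = 0.191) and 1.13 for Bst2 (SE 0.56, adjusted p = 0.267). Without the filter, Usp18 in H3.3 differed by 1.67 (SE 0.48, adjusted p = 0.0680). Rsad2, which was highest in H3.3 in both states, differed by 0.13 (SE 0.02, adjusted p = 0.00994). Its highest value in any library was 0.19 on the log2(FPKM + 1) scale, so the size of 1 was out of reach and missing it says nothing.

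The third comparison was between the types of the tagged H3. In growth, all 6 H3.3-type lines were above all 3 H3.1/H3.2-type lines for 5 of the 9 members, Isg15, Ifit1, Ifit3, Bst2 and Rsad2. Of the genes above 0 FPKM, 4.75% showed that order. For Isg15 the ranges were 0.871 to 2.31 FPKM against 0.323 to 0.427, for Ifit1 0.0743 to 0.419 against 0.0165 to 0.0241, and for Bst2 5.50 to 9.24 against 2.09 to 3.68. Ifit3 did not exceed 0.231 FPKM and Rsad2 0.109 FPKM in growth, so these are differences between low values. WT in growth lay with the H3.1/H3.2-type lines for Bst2 (2.27 FPKM), below both types for Isg15, and within the H3.3-type range for Ifit1 (0.110 FPKM), Ifit3 and Rsad2.

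In the fit over all 18 libraries, none of the members was called in growth, against 23 of 10931 genes (0.210%). Bst2 differed by 1.22 (SE 0.56, adjusted p = 0.491), Isg15 by 0.72 (SE 0.58, adjusted p = 0.737), Irf7 by 0.17 and Stat2 by 0.07. This fit shares its spread with the differentiated libraries, which varied more (SD of Bst2 1.44 against 0.67 on the log2 scale). Fitted on the 9 growth libraries alone, a choice made after the values were seen, Bst2 was called at the same difference (SE 0.18, adjusted p = 0.0150), along with 0.494% of genes called higher, and Isg15 missed the threshold (SE 0.18, adjusted p = 0.0771). With a pseudocount of 0.01 FPKM and no filter in addition, Bst2 (1.52), Isg15 (1.70) and Ifit1 (2.91, adjusted p = 0.0401) were called, against 0.692% of genes. When differentiated, none of the 9 members kept the types apart, which 2.36% of genes did, and none was called (84 genes, 0.768%). Bst2 differed by 1.81 (SE 0.56, adjusted p = 0.0807) and Stat2 by -0.10 (SE 0.16). Without H3mm12, Bst2 passed with 2.16 (adjusted p = 0.0310). For Isg15, Irf7, Bst2 and Usp18 the H3.3-type lines split, with H3.3, H3mm7 and H3mm11 high and H3mm12 among the lowest. Stat2 did not split in this way, with 9.60 FPKM in H3mm11 and 11.6 in H3mm12. The change in the type difference between states was not called for any gene by limma (0 of 10931 genes, 999 at an unadjusted p under 0.05), and for Bst2 it was 0.59 (SE 0.78, adjusted p = 0.880). With the line as a replicate block, 3 genes were called, none of them a member, and 1771 had an unadjusted p under 0.05.

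Other genes moved with the type in growth. Myog, which drives terminal myogenic differentiation, was higher in H3.3-type lines (2.56, SE 0.45, adjusted p = 0.0245), at 7.35 to 23.1 FPKM against 0.106 to 3.21, with 8.02 in WT. The muscle list summed to 411 to 822 FPKM in the H3.3-type and to 265 to 309 in the H3.1/H3.2-type lines. Immune markers summed to 1.54 to 4.38 against 1.08 to 2.06 FPKM, and endothelial markers to 1.06 to 7.68 against 1.50 to 2.82 FPKM. Relative depth was 0.650 to 1.11 against 0.865 to 1.00. The part of these in the type difference was not tested.

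**Figure D4:**
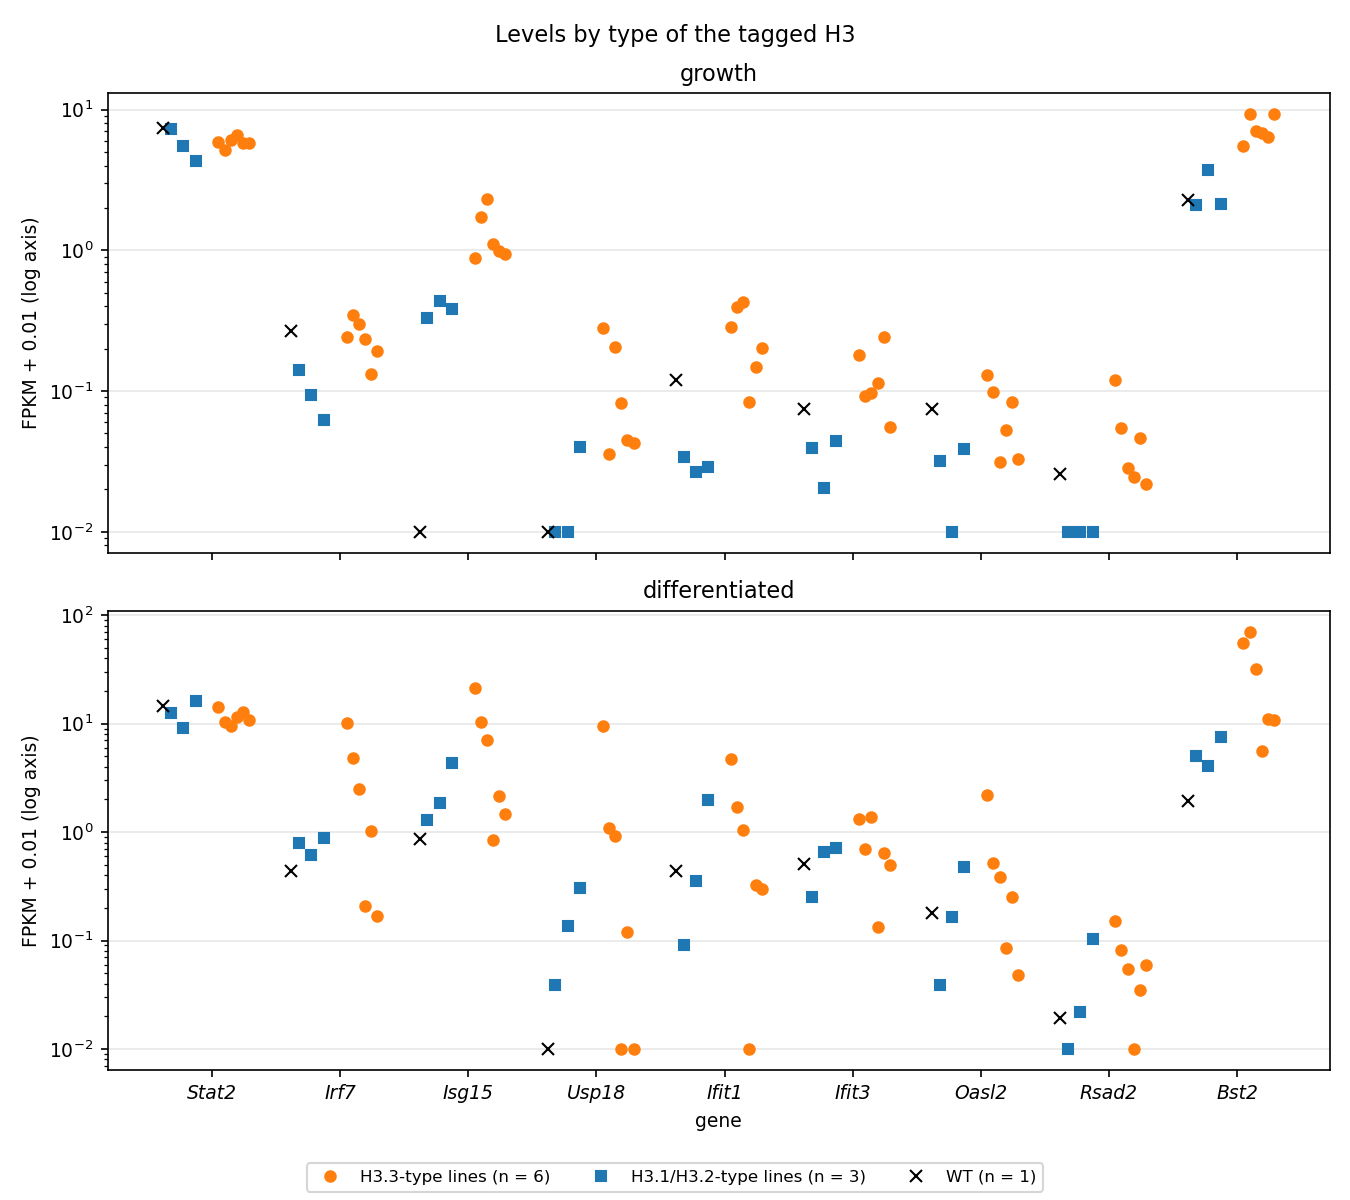
FPKM + 0.01 on a log axis for each member in growth (top) and when differentiated (bottom), with a point for each H3.3-type line (n = 6), H3.1/H3.2-type line (n = 3) and WT. In growth the H3.3-type lines lie above the H3.1/H3.2-type lines for Isg15, Ifit1, Ifit3, Rsad2 and Bst2, and when differentiated the types overlap for every member.

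Of 6 interferon ligand genes, 4 (Ifna1, Ifna2, Ifnb1 and Ifnk) were at 0 in all differentiated GFP-H3 libraries, and none of the 6 reached the limit for testing. Ifna4 was detected in H3mm13 alone, at 0.286 FPKM, and Ifng did not exceed 0.164 FPKM. The 8 receptor chains and JAK kinases were all expressed, with sums of 114 to 134 FPKM in growth and 142 to 157 FPKM when differentiated, and 0 of 8 were called between states (median difference 0.25, against 0.04 over all tested genes). For this and the next counts, 17.4% of all tested genes were called between states in either direction and 8.80% upward. Of 6 tested STAT and IRF factors other than the members, 2 rose on differentiation, Stat3 by 1.26 (adjusted p = 1.38e-07) and Irf9 by 1.14 (adjusted p = 5.58e-04). Among 9 tested nucleic acid sensors and adaptors, 2 fell, Mb21d1 (cGAS, the sensor of cytosolic DNA) by -1.34 and Samhd1, a dNTP hydrolase, by -1.10. Of 4 tested inhibitors, Socs1 fell by -1.54 (adjusted p = 1.50e-08) and the other 3 were not called.

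Of 33 further interferon-stimulated effectors in the table, 14 passed the filter, and 1 was called on differentiation, against 8.80% of all tested genes called higher. This was Lgals3bp, a secreted scavenger receptor protein, which rose by 2.22 (SE 0.32, adjusted p = 6.01e-06). Its differentiated level was 34.3 FPKM in H3.3, 22.9 in H3mm11 and 27.9 in H3mm7, and the highest of the other 6 lines was 9.46 (H3.2). The median difference of the 14 was 0.46. H3.3 was the highest differentiated line for 21 of the 33 (14.0% of the genes above 0 FPKM), and H3.3, H3mm7 and H3mm11 were the 3 highest for 8 (7.69%). In growth, 6 of the 33 had all H3.3-type lines above the others (4.75%). In the antigen presentation list, 7 of 12 genes were tested, of which 1 was called higher on differentiation and 1 between lines. The shares over all tested genes were 8.80% and 5.75%. B2m, the light chain of MHC class I, rose by 1.29 (SE 0.10, adjusted p = 1.01e-09), and H2-K1, a heavy chain, was called between lines (range 1.64, adjusted p = 0.0221), with 63.4 FPKM in H3.3 and 63.0 in H3mm7 differentiated. In WT, H2-K1 had 2.17 and 2.41 FPKM, below every GFP-H3 library, the lowest of which was 10.4 (H3t growth). The share of all genes with WT outside the range of the GFP-H3 libraries was not worked out. With WT added as a line, 2064 of 10954 genes were called between lines, against 629 of 10931 without it. The single tested interferon-inducible GTPase and both tested ISG15 conjugation enzymes were not called.

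**Figure D5:**
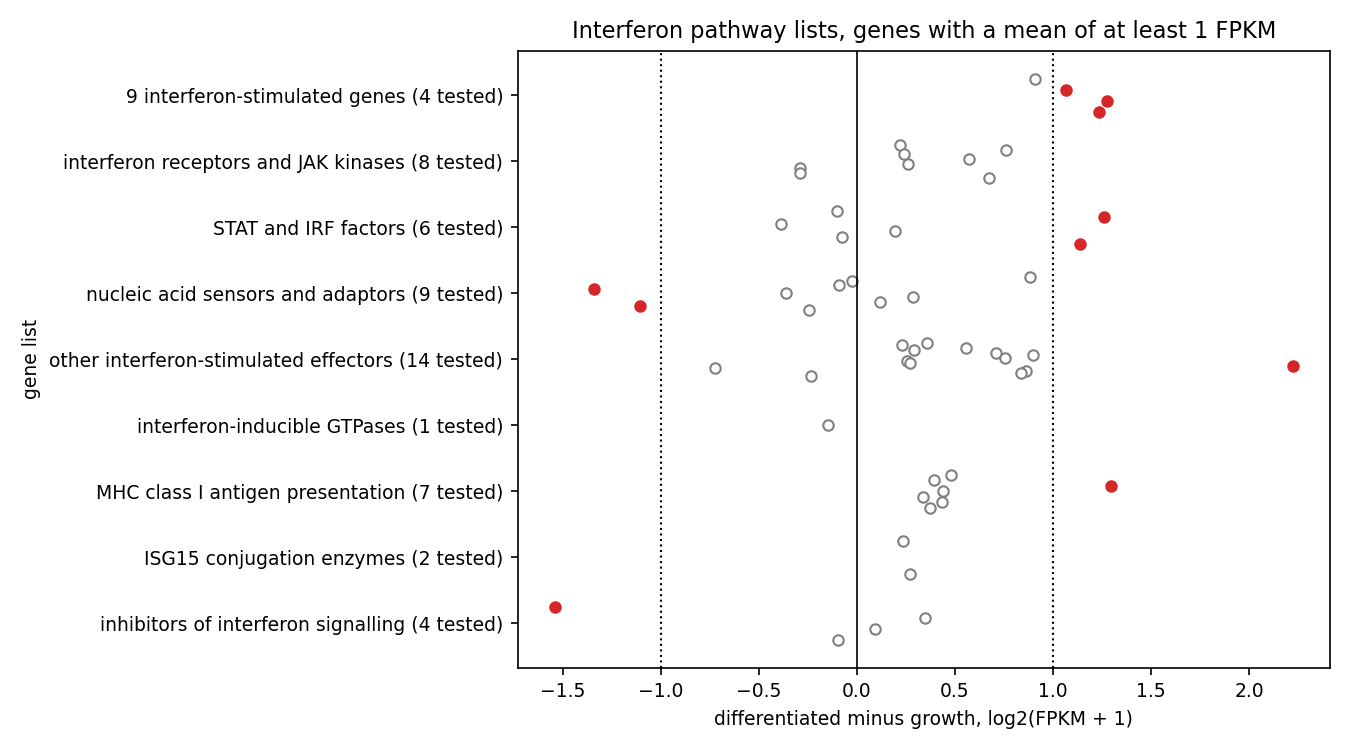
Difference between differentiated and growth libraries on the log2(FPKM + 1) scale for each tested gene (points) of the members and of 8 pathway lists, with called genes filled in red and dotted lines at a difference of 1 in either direction. Members with a mean under 1 FPKM are not shown, and most points of the receptor, sensor and MHC lists lie between the dotted lines.

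Members other than Stat2 varied together when the libraries of both states were pooled. After centring by state, Pearson's r over the 18 GFP-H3 libraries ranged from 0.60 to 0.97 (median 0.77) for the 28 pairs without Stat2, the highest being Usp18 with Oasl2 and the next Ifit1 with Isg15 (0.94). For the 8 pairs with Stat2 it ranged from -0.000174 to 0.34. The libraries share their line and depth, and the differentiated H3.3 library has much weight in these values. Each member varied less in growth (SD of Irf7 0.11 against 1.10 on the log2 scale), so the differentiated libraries weigh more. No r was worked out for growth alone or for pairs of other genes. The genes outside the members that were most like the mean profile of the 4 members above the filter were Apol9a (r = 0.91), Atp6v0d1 (0.90), Ddx58 (0.90), Grn (0.89), Helz2 (0.89), Slc36a1 (0.89), Dpm2 (0.88), Mfsd5 (0.88), Ica1 (0.88) and Serpina1d (0.87). An r of at least 0.8 was reached by 0.503% of the other tested genes. The mean profile includes Stat2, which varied apart from the other members, and leaves out the members under the filter. Ddx58 (RIG-I, a sensor of viral RNA) had, when differentiated, 8.51 FPKM in H3.3, 4.00 in H3mm7, 2.72 in H3t and 2.37 in H3mm11, and did not exceed 1.14 FPKM in growth. Apol9a and Helz2 were highest in H3.3 differentiated as well, at 13.4 and 6.60 FPKM. Grn and Atp6v0d1, which serve lysosomes, were abundant genes with smaller steps: Grn had 315 FPKM in H3.3 and 103 in H3mm12, the highest and lowest of the differentiated lines.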

How the data were processed

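The deposited table gives FPKM per gene for 20 mRNA-Seq libraries. For the GFP-H3 lines, the authors used TopHat2 2.0.8 for mapping to mm9 and estimated FPKM with cuffdiff of Cufflinks 2.0.1. How WT reads were mapped is not stated in the sources used here. FPKM holds no counts, so the depth is unknown and no counting intervals are given. Values were log2(FPKM + 1). Genes with a mean of at least 1 FPKM over the 18 GFP-H3 libraries were tested with limma 3.58.1 (trend and robust settings, R 4.3.3), with Benjamini-Hochberg adjustment over all of them, and called at an adjusted p below 0.05 and a log2 difference of at least 1. WT was given as values. The members and lists were chosen with earlier results of these data known. Named are all members, Irf9, up to 4 called genes of each list and the 10 genes most like the members' mean profile. Genes named in the last part of the text were chosen after their values were seen, as were the values given for immune markers, interferon ligands and Ddx58. The growth and differentiated library of a GFP-H3 line come from the same line, so the line pairs them. Deviations from the state means correlated within each line (r of 0.21 to 0.44, 9 of 9 above 0.1). Alternatives covered the pseudocount (0.1 and 0.01), the filter (none, 5 FPKM), quantile and upper quartile scaling, limma settings, WT added, the line as a block, and each line left out. Scripts were tested on simulated data. Loci are from GENCODE vM1 on mm9. ChIP-seq, its input and 3′-seq were not analysed here. Figures were drawn with matplotlib 3.10.9. Some genes of the named lists are not reported here.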

Additional observations from a re-analysis of the deposited data

Results flagged for a closer look

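Dixon's 95% limit for 9 values was applied to the highest or lowest GFP-H3 line of each member and state. Its gap to the next, as a share of the range on the log2(FPKM + 1) scale, exceeded this limit in 3 of 18 combinations. In a single group of normal values, chance passes the limit in about 1 of 20 cases. The 18 combinations share their libraries and most members vary together, so 3 of 18 cannot be set against that rate. The line was H3.3 in all 3. When differentiated it was the highest for Usp18, with a gap of 0.689 of the range, and for Oasl2, with 0.660. In growth it was the highest for Rsad2, with 0.579, where 3 lines were listed at 0 and the value itself was 0.109 FPKM. The H3.3 libraries also listed the most genes above 0 FPKM in each state, 16865 in growth and 16829 when differentiated. The part of this in the gaps was not tested.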

How the results depend on the processing

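The number of members called on differentiation, 3, became 1 with a mean of at least 5 FPKM (Bst2, since only 2 members are then tested), 1 with WT added (Isg15), and 0 to 3 when a line was left out, with 0 without H3.3 and 1 without H3mm7. Leaving out a line gave 0 to 1 called members for the types when differentiated and 0 to 1 for a line against the other 8. The growth libraries fitted alone gave 1 called member between types, and 3 with a pseudocount of 0.01 FPKM and no filter, both added after the values were seen. No paired result was lost: with the line as a replicate block, 3 members were called on differentiation and 0 for the interaction. The other alternatives left these counts within 1.5 times. Stat2 reached a difference of 1 with a pseudocount of 0.1 (1.01) or 0.01 FPKM (1.02), and Irf7 went under it with quantile normalization (0.87). For the 4 members above the filter, no difference on differentiation turned its sign under any alternative in which it was tested. The other members were fitted only without the filter. That leaves the difference itself unchanged, so their sign could not turn. Type differences, none of them called, turned theirs under 1 alternative for Irf7 in growth and for Stat2 in each state, and the interaction under 6 for Isg15 and 1 each for Irf7 and Stat2. Fold changes of members under 1 FPKM are understated by the pseudocount of 1, and lines with 1 library per state cannot separate a transgene from its line.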

Other observations

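The genes in this paragraph were chosen after their values were seen, and no test is given for them. Ifi44, an interferon-induced cytoplasmic protein gene, did not exceed 0.0704 FPKM in growth and had, when differentiated, 5.23 FPKM in H3.3, 1.42 in H3mm11 and 2.35 in H3mm7, with 0.464 in H3t. Isg20, a 3′ to 5′ exonuclease gene, had 33.4, 19.6 and 40.2 FPKM in these lines in the same order and 10.4 FPKM at the highest in the other 6 (H3.2). Nlrc5, the transactivator of MHC class I genes, had 2.19, 0.828 and 1.13 FPKM there, and 0.335 at the highest in the other 6 (H3mm13). The chemokine gene Ccl5 stood apart in a single library, with 35.7 FPKM in H3mm7 differentiated and 1.46 FPKM in the next (H3.3). Ifit2, of the same family as Ifit1 and Ifit3, did not follow them: it had 1.97 FPKM in H3.3 and 1.81 in H3mm7 differentiated, below H3.1 (2.67) and H3.2 (3.52). Psme2, a proteasome activator subunit, had 4.51 and 5.56 FPKM in WT, whereas the GFP-H3 libraries lay between 52.6 (H3.1 growth) and 119 (H3t differentiated). As for H2-K1, the share of all genes with WT outside that range was not worked out.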
